A study of Mus musculus with 3 samples.

Results

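Of the 20308 genes in the table, 10 genes of fibroblast growth factor (FGF) signalling were chosen by name: the receptors Fgfr1, Fgfr2, Fgfr3, Fgfr4 and Fgfrl1, the adaptors Frs2 and Frs3, and the ligands Fgf1, Fgf2 and Fgf7. RNA sequencing measured their transcripts in satellite cells, the stem cells of skeletal muscle, taken from mice of 3 months of age that carry a Pax7-ZsGreen reporter. Each sample held about 200000 cells with ZsGreen fluorescence, sorted from digested hindlimb muscle pooled from several animals; the labels also name the tibialis anterior as tissue. The 3 libraries form 1 group, with no second condition, so the data give levels and their spread between libraries. Values are TPM, in which each transcript's share of its library is corrected for length, so levels can be compared between genes. TPM keeps no read totals, so depth is unknown, and an entry of 0 can be a failed estimate, as Rps27, a ribosomal protein gene, is listed at 0 in all 3 libraries. Nothing in the labels tells whether each library had its own pool of animals, so a p-value here covers the spread between these 3 samples, and that spread may be technical.

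FGF ligands bind their receptors together with heparan sulphate chains, and the paired receptors then phosphorylate each other. The docking protein FRS2 sits on the inner side of the receptor and carries the signal to GRB2, SOS and the RAS to ERK kinase cascade, which in turn induces its own inhibitors such as the Sprouty proteins and DUSP6. In muscle, FGF2 is a classical mitogen of cultured satellite cells, and FGFR1 and FGFR4 are the receptors usually described in them. In bulk samples such as these, fewer cells of a type and less RNA per cell cannot be told apart.

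The receptors are paralogues, so it matters whether reads can tell them apart. The longest run of identical bases found between any 2 of their transcripts lies in exon 12, within the coding sequence of the kinase domain, and its surroundings are shown here because reads from such a stretch are the hardest to assign. The 60 bases are from GENCODE M21 transcripts on GRCm38, 5′ to 3′, with capitals at the bases that differ from Fgfr1; the locations are chr8:25570162-25570221 (plus strand) for Fgfr1, chr7:130180395-130180454 (minus strand) for Fgfr2, chr5:33733877-33733936 (plus strand) for Fgfr3 and chr13:55165911-55165970 (plus strand) for Fgfr4.
Fgfr1: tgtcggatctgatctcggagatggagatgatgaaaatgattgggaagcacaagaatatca
Fgfr2: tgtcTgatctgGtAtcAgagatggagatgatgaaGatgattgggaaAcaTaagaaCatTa
Fgfr3: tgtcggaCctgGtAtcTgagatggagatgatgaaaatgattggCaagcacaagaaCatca
Fgfr4: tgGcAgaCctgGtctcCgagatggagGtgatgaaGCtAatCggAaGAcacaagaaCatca
Of these 60 bases, Fgfr2 shares 51 with Fgfr1, Fgfr3 shares 54 and Fgfr4 shares 46. The longest run without a difference was 26 bases, between Fgfr1 and Fgfr3. Every other pair of receptors shared at most 20 bases in a row, and Frs2 and Frs3 shared 14. None of the 31-base words of a member's representative transcript occurred in another member. Such words are exact and were compared on the transcript strand only, so they do not show how reads with mismatches were assigned. The share of words found in any other annotated gene was 0.259% for Fgfr1, 0.787% for Fgfr3, all of them in the pseudogene Fgfr3-ps, and 0% for Fgfr2, Fgfr4, Fgfrl1 and Frs3. It was highest for Fgf2, at 3.79%, all in the annotated gene Gm43439. The gene annotation behind the deposited values is not given in the sources used here.

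Fgfr1 had by far the highest transcript level of the FGF receptors in these sorted samples. This receptor kinase (chromosome 8, 25513654 to 25575718, plus strand) was at 909, 974 and 933 TPM in replicates 1, 2 and 3, a mean of 939 ± 32.7 TPM (SD, n = 3), rank 198 of all 20308 genes. Fgfr4 (chromosome 13, 55152640 to 55168759, plus strand), a receptor known for its strong expression in the muscle lineage, was at 166, 174 and 123 TPM, a mean of 154 ± 27.1 TPM and rank 1023. Every Fgfr1 value lay far above every Fgfr4 value, and replicate 3 was the lowest library for Fgfr4 but not for Fgfr1. Within a library, Fgfr1 exceeded Fgfr4 by 2.46, 2.48 and 2.92 on the log2(TPM + 0.1) scale. The mean difference of 2.62 ± 0.26 (SD, n = 3) is a 6.15-fold excess, with the same direction in 3 of 3 libraries (limma over all genes, adjusted p = 4.2e-09).

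The remaining kinase receptors were low and uneven. Fgfr3 (chromosome 5, 33721674 to 33737068, plus strand), best known as a brake on growth plate cartilage, was at 12.5, 11.3 and 0 TPM. Fgfr2 (chromosome 7, 130162451 to 133123350, minus strand), whose b and c splice forms serve epithelium and mesenchyme, was at 0, 0.24 and 2.53 TPM. The 2 genes thus differed in which library held their highest value: Fgfr3 was listed at 0 in replicate 3, where Fgfr2 peaked. Neither was decided against 1 TPM by limma (adjusted p = 0.56 for Fgfr3 and 0.488 for Fgfr2). Without replicate 3, its only library at 0, Fgfr3 was called above 1 TPM (limma adjusted p = 3.9e-08), a call that follows from what was left out. Without replicate 1 or without replicate 2 it stayed undecided (limma adjusted p = 0.990 and 0.994). The deposited values are per gene, so splice forms cannot be told apart.

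Together the 4 kinase receptors summed to 1087, 1160 and 1059 TPM. Fgfr1 held 83.6%, 84.0% and 88.1% of that sum, a mean of 85.2% ± 2.49 (SD, n = 3). Fgfr4 held 15.2%, 15.0% and 11.6%, a mean of 13.96% ± 2.00. Fgfr1 and Fgfr4 therefore made up nearly the whole sum of kinase receptor transcripts in each library, with Fgfr3 at 1.15%, 0.978% and 0% and Fgfr2 at most 0.239%.

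Fgfrl1 (chromosome 5, 108692382 to 108706924, plus strand) encodes a relative of the receptors that binds FGF but lacks the kinase domain. It was at 16.2, 13.99 and 10.8 TPM, a mean of 13.7 ± 2.72 TPM, with values in all 3 libraries close together. The log2 difference of Fgfrl1 from Fgfr1 was -6.11 ± 0.31, a level 69.2-fold lower (limma adjusted p = 1.3e-07). Its difference from Fgfr4 was -3.49 ± 0.14, a level 11.3-fold lower (limma adjusted p = 4.0e-07). Both directions held in 3 of 3 libraries. The receptor without a kinase was thus more even than Fgfr2 and Fgfr3, which were listed at 0 in at least 1 library.

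**Figure D1:**
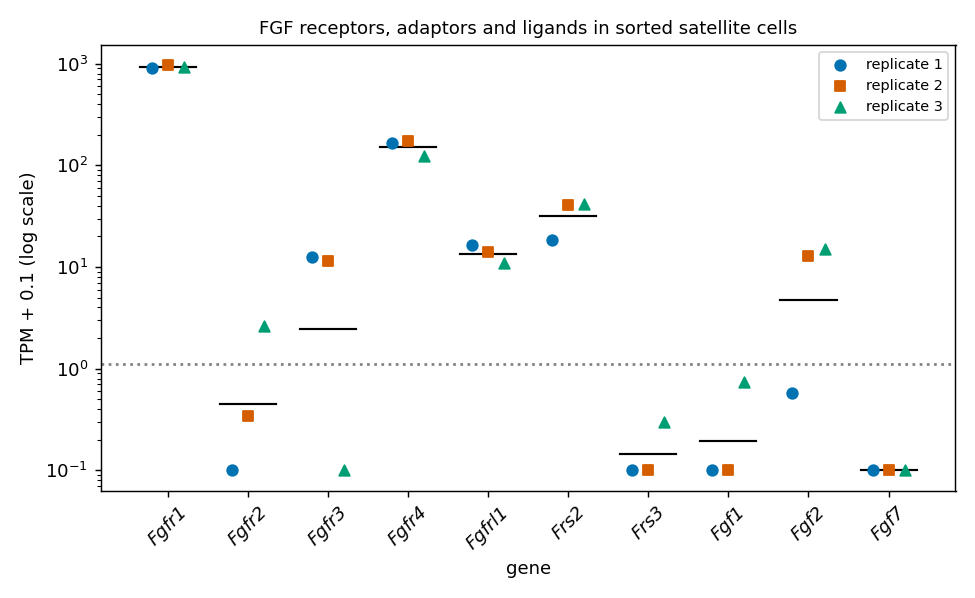
TPM plus 0.1 of the 10 genes in each of the 3 libraries, on a log scale; points are libraries, bars are the mean of log2(TPM + 0.1) and the dotted line marks 1 TPM. Fgfr1 sits between 909 and 974 TPM and Fgfr4 between 123 and 174 TPM, while Fgfr2, Fgfr3, Frs3, Fgf1 and Fgf7 have at least 1 library at 0.

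Of the adaptors, Frs2 was present and Frs3 was barely listed. Frs2 (chromosome 10, 117069427 to 117148534, minus strand), the widely used docking protein of FGF receptors, was at 18.2, 40.9 and 41.8 TPM, a mean of 33.6 ± 13.4 TPM. Replicate 1 was the low library, and the other 2 were close to each other. Frs3 (chromosome 17, 47689030 to 47704286, plus strand), its paralogue described mainly in neural tissue, was at 0, 0 and 0.2 TPM. The log2 difference of Frs3 from Frs2 was -7.51, -8.68 and -7.12, a mean of -7.77 ± 0.81 (limma adjusted p = 2.4e-06, lower in 3 of 3 libraries), a size set by the pseudocount because Frs3 is listed at 0 in 2 libraries. Without replicate 2 that difference no longer passed (limma adjusted p = 0.0746).

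The ligands of the set were low. Fgf2 (chromosome 3, 37348346 to 37410108, plus strand), the basic FGF that leaves cells without a classical signal peptide, was at 0.47, 12.6 and 14.9 TPM. Replicate 1 was again the low library, and for Fgf2 the gap was larger than for Frs2. Fgf2 was not decided against 1 TPM (limma adjusted p = 0.118). It stayed undecided without replicate 2 or without replicate 3 (limma adjusted p = 0.485 and 0.507). It was called above 1 TPM with a robust prior (limma adjusted p = 0.0462) and without replicate 1 (limma adjusted p = 1.4e-08). The latter call follows from leaving out its only low library. Fgf1 (chromosome 18, 38838673 to 38929472, minus strand), the acidic FGF that binds every FGF receptor, was at 0, 0 and 0.64 TPM. Fgf7 (chromosome 2, 126034658 to 126091185, plus strand), a growth factor for epithelium made by mesenchymal cells, was listed at 0 in all 3 libraries and was not tested. Fgf1 was lower than Fgf2 in 3 of 3 libraries, with log2 differences of -2.51, -6.99 and -4.34, but the pair did not pass (limma adjusted p = 0.271) and the ranges of the 2 genes overlapped.

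Counted against 1 TPM, 4 members were above it: Fgfr1, Fgfr4, Frs2 and Fgfrl1 (limma adjusted p = 1.7e-13, 2.1e-11, 1.5e-07 and 1.5e-05). Of all 12822 genes tested, 60.8% were called above, so a count of 4 among 9 tested members is not a high one. Frs3 was called below 1 TPM (limma adjusted p = 0.0448), a call made for 2.18% of the genes tested and for no member when any 1 library was left out. Fgfr2, Fgfr3, Fgf1 and Fgf2 were not decided, and Fgf7 was not tested. The median of the 10 members' means was 8.63 TPM, against 2.24 TPM over all genes in the table.

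In the order of mean level, Fgfr1 was followed by Fgfr4, Frs2, Fgfrl1, Fgf2, Fgfr3, Fgfr2, Fgf1 and Frs3. The upper 3 steps passed the limma test, which shares variance across genes. Besides Fgfr1 over Fgfr4, Fgfr4 exceeded Frs2 4.84-fold, by a log2 difference of 2.27 ± 0.83 (limma adjusted p = 3.8e-06). Frs2 exceeded Fgfrl1 2.33-fold, by 1.22 ± 0.93 (limma adjusted p = 0.00209). Both differences had the same direction in 3 of 3 libraries. For Frs2 over Fgfrl1 they were 0.165, 1.54 and 1.94, so replicate 1 was nearly a tie and this step was uneven between libraries. Among all genes, 6.09% were called higher than Fgfr4, 17.7% higher than Frs2 and 33.8% higher than Fgfrl1. From Fgfrl1 downward the ranges of neighbouring genes overlapped in each of the 5 steps and no step passed (limma adjusted p between 0.408 and 0.841).

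Of the 10 role-based pairs compared within a library, 9 could be tested and 8 differed. Fgfr2, Fgfr3 and Fgfrl1 were each below both Fgfr1 and Fgfr4, where 98.3% of all genes were called lower than Fgfr1 and 89.6% lower than Fgfr4, so these calls are the common case for any gene. Likewise 48% of genes were called lower than Frs2. The log2 difference of Fgfr3 from Fgfr4 was -3.72, -3.93 and -10.3 (limma adjusted p = 0.00034), with the last value set by the entry of 0. That of Fgfr2 from Fgfr4 averaged -8.42 ± 2.62 and ranged between -10.7 in replicate 1, where Fgfr2 is listed at 0, and -5.55 in replicate 3 (limma adjusted p = 3.3e-05). The exact sign-flip permutation p, two-sided, was 0.25 for each of the 9 pairs, all of the same sign in 3 of 3 libraries; with 3 libraries it cannot be smaller. The adjusted values therefore depend on the variance that limma shares across genes.

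**Figure D2:**
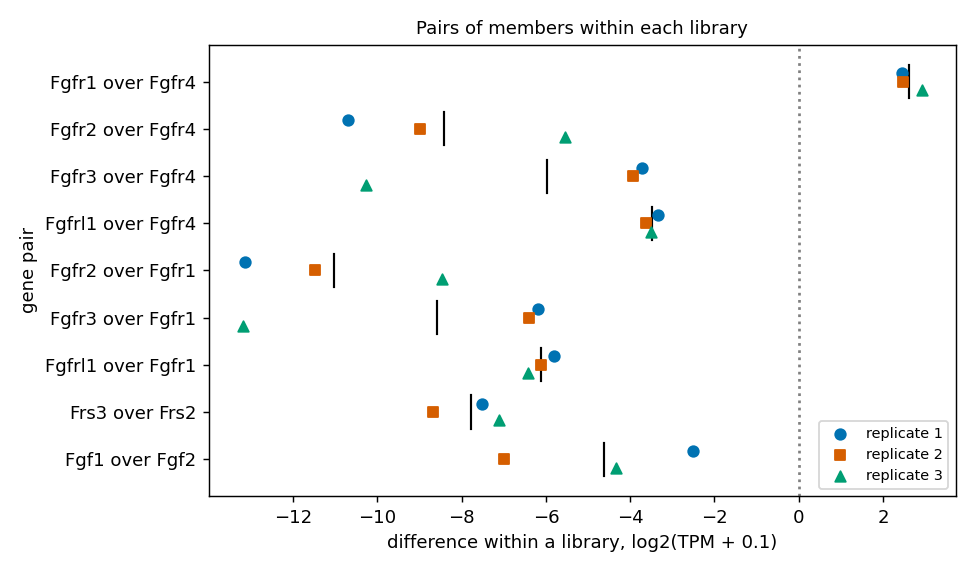
Difference between the 2 genes of each testable pair within a library, on the log2(TPM + 0.1) scale, first gene over second; points are libraries and bars are means. Fgfr1 over Fgfr4 lies between 2.46 and 2.92, Fgfrl1 over Fgfr4 is tight, and the pairs with Fgfr2, Fgfr3 or Fgf1 are spread by entries of 0.

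The spread between libraries separated the members. Fgfr1 had a coefficient of variation of 3.48% and an SD of 0.050 on the log2 scale, against a median of 0.13 over the 164 other genes within 1.5 times its mean, 84.8% of which were at least as variable. Fgfrl1 was also even, with an SD of 0.29, and 83.5% of the 2119 genes of like level were at least as variable. Fgfr4, with an SD of 0.27, and Frs2, with 0.68, lay above the medians of 0.20 and 0.41 for their levels. Fgf2, with an SD of 2.66, and Fgfr3, with 3.99, were wide even for genes of their level, where 16.01% and 7.97% were at least as variable. Of the 6621 genes with at least 10 TPM in at least 2 libraries, 129 were listed at 0 in the other, and for 49 of them, Fgfr3 included, that library was replicate 3.

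**Figure D3:**
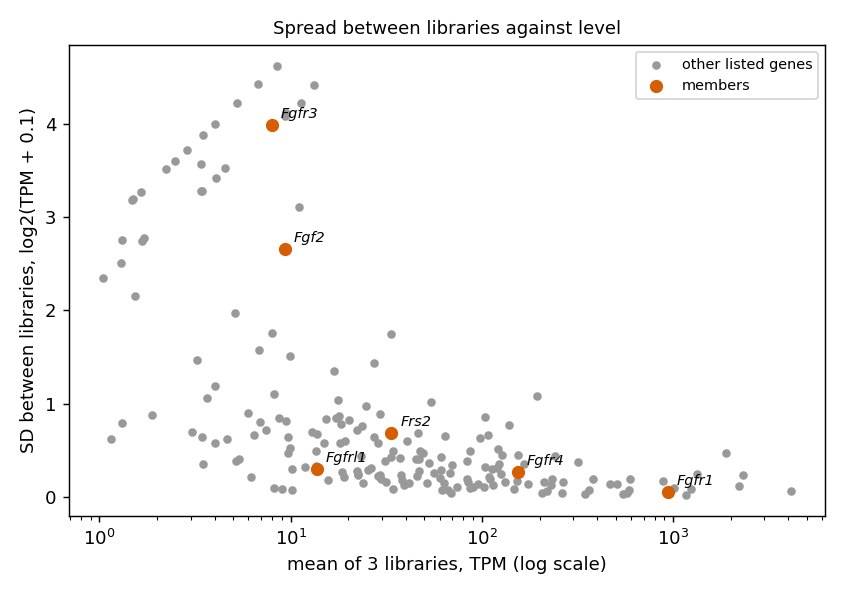
SD between the 3 libraries on the log2(TPM + 0.1) scale against mean TPM on a log scale, for the members of at least 1 TPM on average and the other listed genes of that level. Fgfr1 lies at the lower right, and Fgfr3 and Fgf2 lie high, near other genes with an entry at or close to 0.

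Transcripts of marker genes of other cells were listed in each library; calls above 1 TPM are read against the 60.8% of all genes tested. All 15 satellite cell markers were above 1 TPM, with summed levels of 9154, 9145 and 8737 TPM in replicates 1, 2 and 3. The defining Pax7 was at 56.8, 46.4 and 51.1 TPM. The markers are those of the labelled cells, but calls above 1 TPM do not single out a cell type. All 11 endothelial markers were also above 1 TPM, with sums between 1599 and 2907 TPM, highest in replicate 3. Of 12 fibro-adipogenic markers, 7 were above 1 TPM, with sums between 2341 and 2706 TPM. The defining Pdgfra was at 4.98, 0.11 and 0.06 TPM, while Ly6a, also taken as defining, was at 23.4, 41.2 and 36.2 TPM. The sums ranged between 209 and 437 TPM for 14 mature fibre markers (7 above 1 TPM), 276 and 360 for 11 leukocyte markers (5), 461 and 526 for 10 pericyte and smooth muscle markers (6), 162 and 259 for 9 Schwann cell markers (5), 232 and 342 for 7 tendon markers (6), and 139 and 453 for 6 erythroid markers (2). Of the defining markers, Cd68 was listed at 0 in replicates 2 and 3 and Sox10 in replicate 3. Other markers of these lists were present in all 3 libraries and called above 1 TPM. The leukocyte marker Ptprc was at 12.17, 15.42 and 2.18 TPM, and the endothelial marker Pecam1 was at 27.71, 32.48 and 61.16 TPM. The tendon marker Tnmd was at 6.62, 26.05 and 20.11 TPM, and the fibre marker Acta1 averaged 28.6 TPM. The highest gene held a large part of each sum. Fabp4 held 88.0% of the endothelial sum, Hba-a2 63.9% of the erythroid sum and Thbs4 55.4% of the tendon sum. Cd74 held 49.97% of the leukocyte sum, Tnnt1 47.2% of the fibre sum and Sdc4 45.9% of the satellite cell sum. Pmp22 held 42.6% of the Schwann cell sum and Gsn 34.4% of the fibro-adipogenic sum. Notch3 held 44.2% of the pericyte and smooth muscle sum and is also counted among the satellite cell markers. Without Notch3 the pericyte sum was between 244 and 296 TPM. In replicate 3, the library with the lowest Fgfr4 and with Fgfr3 at 0, the endothelial, fibre and Schwann cell sums were highest, and without their highest gene they were 320 TPM, 232 TPM and 138 TPM there, still the highest. The erythroid sum was also highest in replicate 3, but without Hba-a2 it was highest in replicate 1. Single endothelial markers went the other way, with Cdh5 at 34.8, 35.6 and 31.8 TPM. The satellite cell, fibro-adipogenic and leukocyte sums were lowest in replicate 3, at 8737, 2341 and 276 TPM. They stayed lowest there without their highest gene, while the tendon sum was lowest there only with Thbs4 included. In replicate 1, the library with the lowest Frs2 and Fgf2, the Schwann cell sum was lowest with and without its highest gene, Pmp22, while the fibre sum was lowest only with Tnnt1 included. The pericyte and smooth muscle sum was highest in replicate 1, with and without Notch3. The sums without the highest gene were added after the data were seen. The part of these cells in the members' levels was not tested.

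Among the receptor tyrosine kinases chosen for comparison, which are not the whole family, Fgfr1 stood highest. All 18 other receptor kinases of the list were lower than Fgfr1 in 3 of 3 libraries and passed the test (limma, Benjamini-Hochberg), as did 98.3% of all genes. The closest was Ddr2, a collagen receptor, at 235, 261 and 200 TPM, with a log2 difference of -2.03 ± 0.17 from Fgfr1 (limma adjusted p = 4.3e-08). Ddr2 was above Fgfr4 by 0.59 ± 0.10 (limma adjusted p = 0.00404, higher in 3 of 3 libraries). Musk, the organiser of the neuromuscular synapse, at 131 ± 14.5 TPM, and Axl, a receptor for GAS6, at 122 ± 30.6 TPM, did not differ from Fgfr4 past the threshold (limma adjusted p = 0.271 and 0.0907), and their ranges overlapped with it. The other 15 kinases were lower than Fgfr4, as were 89.6% of all genes, so 15 of 18 is not a high count. Those 15 kinases included Met, the receptor for hepatocyte growth factor, at 60.3 TPM, Egfr at 63.0 TPM and Igf1r at 55.9 TPM. All 3 were named after their values were seen.

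**Figure D4:**
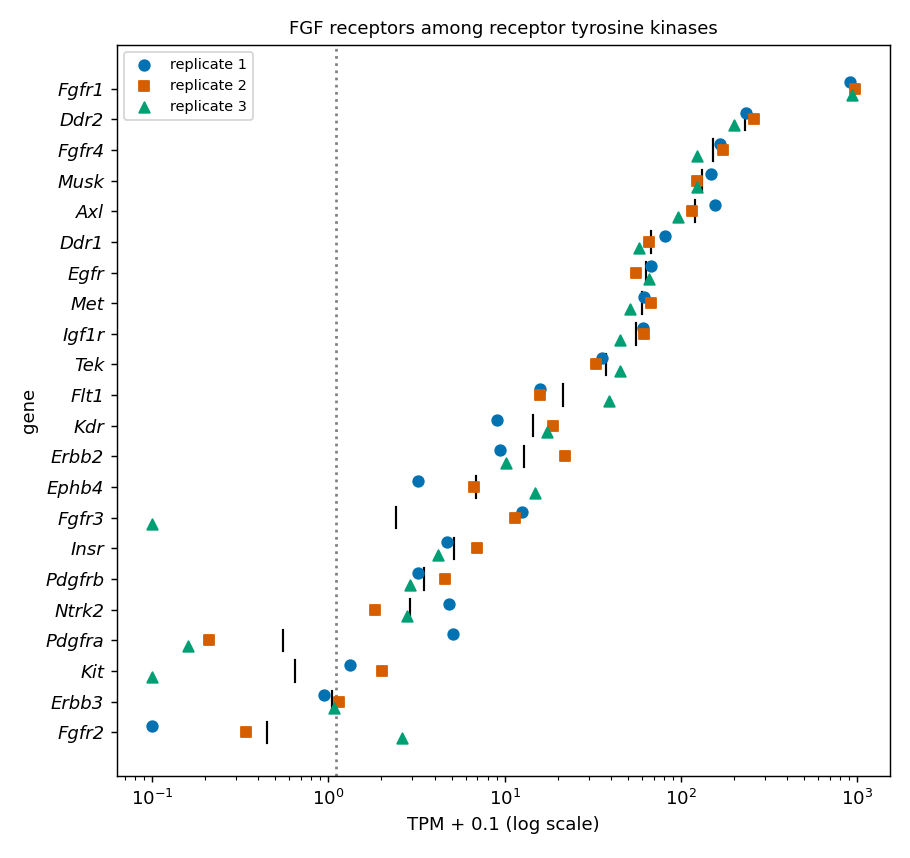
TPM plus 0.1 of the 4 FGF receptor kinases and 18 other receptor tyrosine kinases, on a log scale and ordered by mean TPM; points are libraries, bars are the mean of log2(TPM + 0.1) and the dotted line marks 1 TPM. Fgfr1 is at the top, Fgfr4 lies between Ddr2 and Musk, Fgfr3 has 1 library at 0, and Fgfr2 is at the bottom.

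Among the other secreted ligands, Fgf16 stood out from low or absent entries. Fgf16 (chromosome X, 105764279 to 105774939, plus strand), a ligand of the Fgf9 subfamily described in the heart, was at 28.8, 19.8 and 27.3 TPM, a mean of 25.3 ± 4.84 TPM (limma adjusted p = 1.2e-07). All 3 libraries were close together and above every value of Fgf2, and none of its 31-base words occurred in another gene. It was the 1 of 15 listed ligands called above 1 TPM. Another 10 ligands were listed at 0 in all libraries, among them Fgf6, the ligand known from myogenic cells, which was singled out after its values were seen. Fgf9, at 0, 0 and 10.4 TPM, and Fgf18, at 0, 6.59 and 3.54 TPM, were not decided. Of the 4 intracellular FGF homologous factors, which bind sodium channels and not the receptors, none was called: Fgf11 was at 0, 0.12 and 10.1 TPM, and Fgf12 and Fgf13 appeared in replicate 1 alone, at 4.45 and 4.52 TPM.

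Of the 16 co-receptor and binding protein genes, 15 were tested and 10 were above 1 TPM, a share near the 60.8% of all genes tested, and the list median was 21.3 TPM. Sdc4, a heparan sulphate proteoglycan of satellite cells, averaged 4135 ± 192 TPM. The adhesion molecule Ncam1 averaged 114 ± 10.2 TPM and the glypican Gpc1 averaged 113 ± 24.9 TPM. Klb, the co-receptor needed for the hormone FGF21, was at 0, 0.1 and 0 TPM and was called below 1 TPM (limma adjusted p = 0.0284), a call that was lost with any 1 library left out. Of the 17 genes that make or edit heparan sulphate, 14 were tested and 10 were above 1 TPM, again not far from the 60.8% of all genes. Sulf1, which removes sulphate groups from the finished chains, averaged 346 ± 7.92 TPM, the sulphotransferase Ndst1 averaged 103 ± 7.72 TPM and the epimerase Glce averaged 73.7 ± 5.21 TPM.

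Genes downstream of the receptors were nearly all above 1 TPM. Of 20 partners close to the receptor, 19 were called, with a median of 24.4 TPM. The highest were Stat3, at 547 ± 13.6 TPM, the catenin Ctnnd1, at 267 ± 30.5 TPM, and the adaptor Grb2, at 165 ± 41.4 TPM, which FRS2 recruits. Of 14 genes from RAS to ERK, 13 were called, with a median of 65.1 TPM, led by the ERK kinase Map2k1 at 230 ± 19.5 TPM, the ERK-activated kinase Rps6ka3 at 211 ± 23.5 TPM and Nras at 125 ± 20.5 TPM. The remaining gene, Rps6ka1, was listed at 0 in all 3 libraries and was named after its values were seen. The share called was above the 60.8% of all genes tested for both lists, but the lists hold widely expressed genes.

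Feedback inhibitors and target genes were mostly above 1 TPM, at shares higher than the 60.8% of all genes tested. Dusp6 and Spry4 are counted in both lists, and the lists were chosen with earlier results of these data known. Of 14 feedback genes in the table, 12 were called (list median 56.9 TPM). Errfi1, which restrains the EGF receptor, averaged 2199 ± 177 TPM, the ERK pathway inhibitor Spry2 averaged 318 ± 75.6 TPM and the related Spred1 averaged 173 ± 16.5 TPM. Of 12 target genes, 11 were tested and 10 were called (list median 82.2 TPM). Egr1, Fos and Myc, at 2326 ± 363, 1335 ± 229 and 1011 ± 69.4 TPM, are also induced by many other stimuli, tissue dissociation included, and no undissociated sample was measured. Etv4, an ETS factor induced by FGF, was at 0, 0 and 0.18 TPM and was called below 1 TPM (limma adjusted p = 0.0414), a call that was lost with any 1 library left out. Its relative Etv5 was at 18.4, 11.2 and 24.6 TPM, and was singled out after its values were seen.

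**Figure D5:**
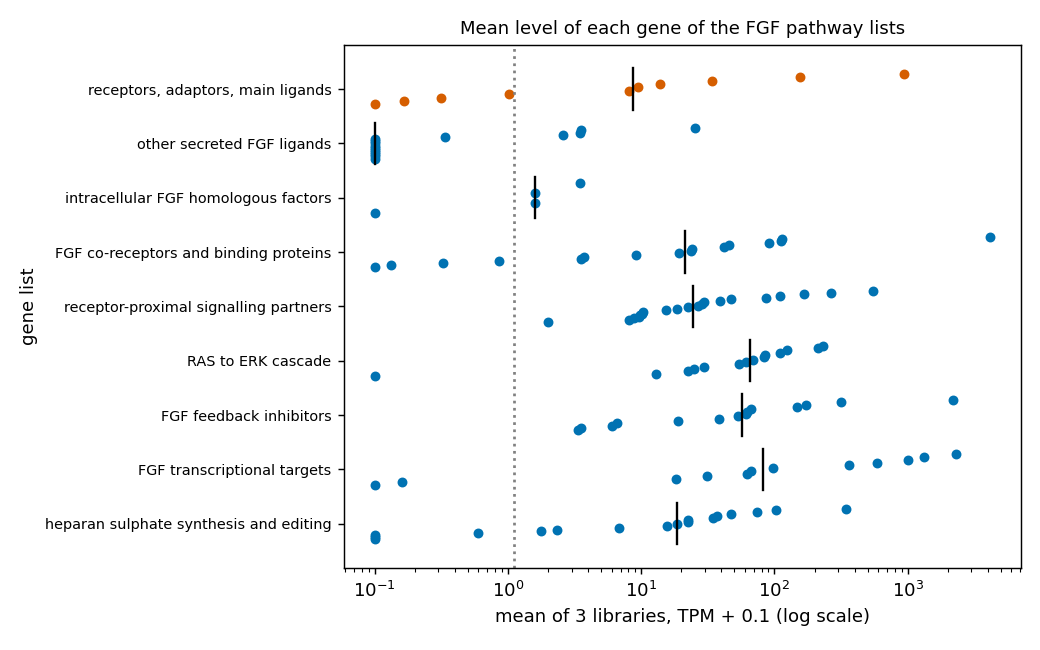
Mean TPM plus 0.1 over the 3 libraries of each gene in the FGF lists, on a log scale; each point is a gene, bars are list medians and the dotted line marks 1 TPM. The receptor, adaptor and ligand set spans the range between 0 and 939 TPM, with the other secreted ligands mostly at 0 and the RAS to ERK genes around a median of 65.1 TPM.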

How the data were processed

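RNA was isolated with a Picopure kit and libraries followed Illumina protocols, per the labels. Per the submitters' processing notes, CASAVA 1.8, Bowtie 0.12.9, RSEM 1.2.3 and mm10 were used; their roles and settings, the annotation and the strandedness are not stated there. The authors deposited 1 table of TPM without mitochondrial genes, rescaled so that each of the 3 columns sums to 1000000, per the name of the table and its values. Libraries were matched by title.

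With limma 3.58.1 in R 4.3.3, log2(TPM + 0.1) was tested against 1 TPM, two-sided, for the 12822 genes with any value above 0. The prior variance followed a trend, and p-values were adjusted by Benjamini-Hochberg across these genes (threshold 0.05). For pairs, every gene was set against the second gene within each library in the same way. Fits were tested on simulated data. Positions and 31-base words are from GENCODE M21; the representative transcript of a gene is the one with the longest coding sequence. Alternatives were the pseudocount, filter, variance prior, library scaling, threshold and each library left out.

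Named genes are all 10 members, the 3 highest genes of each of 9 pathway lists, genes called below 1 TPM and the markers. The members, lists and pairs were chosen with earlier results of these data known.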

Additional observations from a re-analysis of the deposited data

How the results depend on the processing

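The 4 members above 1 TPM were 4 or 5 under all 11 alternatives, and the 8 differing pairs were between 7 and 9 under all 10. That range partly reflects which pairs could be tested. Frs3 against Frs2 was untested when means under 0.1 TPM were left out and without replicate 3. With no filter, Fgf7 against Fgf2 became testable and passed. The count of members below 1 TPM, 1 as reported, was 0 when the pseudocount was 0.01 or when means under 0.1 TPM were left out, 3 with no filter, 2 at a threshold of 5 TPM and 0 without any 1 of the 3 replicates. Over all genes that count, 279, was 3 when the pseudocount was 0.01, 451 when it was 1, 0 when means under 0.1 TPM were left out, 8056 with no filter, 478 with no variance trend, 393 with a robust prior, 284 with median-of-ratios scaling, 1434 at a threshold of 5 TPM and 0 without any 1 replicate. Of 183 values for single genes and pairs under an alternative, 171 kept their direction and their side of the threshold, 4 lost it, 5 gained it and 3 changed sign. Cases left untested in the main fit or under an alternative are not among the 183. The sign changes were Fgfr3, which ranged between -0.040 without replicate 1 and 3.45 without replicate 3, at -1.07 against 5 TPM, and Fgf2 at -0.097 against 5 TPM, on the log2 scale, with no negative value past the threshold; the change against 5 TPM follows from the higher threshold. Fgf1 was called below with no filter (limma adjusted p = 0.0423) and below 5 TPM (limma adjusted p = 0.00975). The cause of the other changes was not tested. No paired comparison of conditions was possible because the 3 libraries form 1 group. Only pairs of genes were compared within a library. Depth is unknown, so a detection limit cannot be given for entries of 0.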
